A study of Caenorhabditis elegans with 8 samples.

Results

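The astacin, ADAM, ADAMTS and matrix metalloprotease genes of *Caenorhabditis elegans* were followed in young adult worms given the neuromuscular blocker atracurium. The genes were taken by name, as every row of the deposited table whose symbol begins with *nas-*, *adt-*, *adm-* or *zmp-*. This gave 44 of 17521 genes: 33 astacins (*nas*), 3 ADAMTS genes (*adt*), 2 ADAM genes (*adm*) and 6 matrix metalloproteases (*zmp*, MMP). The gene annotation of the same genome build (WBcel235) carries 48 genes with such names. Of these, *nas-16*, *nas-18* and both loci named *nas-2* were not analysed here. The naming rule itself uses no measured value.

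All of these enzymes are metzincins, secreted or membrane-anchored proteases that hold a zinc ion in the active site and are made as inactive precursors. Astacins process collagens, growth factor antagonists and cuticle proteins, and in worms they serve in hatching, molting and digestion. ADAM proteases shed the outer parts of membrane proteins such as Notch, whereas ADAMTS enzymes and MMPs act on extracellular matrix and basement membrane.

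Wild-type N2 worms received 50 μM atracurium for 24 h, between the L4 larval stage and day 1 of adulthood, and were set against N2 worms that received the water vehicle for the same time. The plates of both groups also held 5-fluorouracil, which blocks the production of progeny. RNA of whole worms was sequenced in 4 samples per group, each of about 1000 worms. In whole-worm RNA, a smaller share of cells of a type and less RNA per cell cannot be told apart.

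Reads assigned to genes numbered between 27922986 and 60015200 per sample. The 60015200 were those of the second vehicle sample, and the others had at most 35947045. Read counts of single samples given below are not scaled for this depth. Over 4 pharynx markers the median log2 fold change, atracurium over water vehicle, was 0.47, and *myo-1* and *myo-2* among them passed the adjusted threshold of limma-trend (adjusted p = 0.0129 and 0.0284), but not with the length trend removed (0.124 and 0.132). The pharynx markers summed to 116 to 127 CPM with atracurium and 87.0 to 93.8 CPM with vehicle. They did not all move: *tnt-4* was at 0.49, but *pha-4* at 0.045 (adjusted p = 0.871 in limma-trend), and with the length trend removed at 0.50 and -0.0044. Sperm markers were at a median of -0.79 over 7 genes, body wall muscle markers at 0.21 over 4 and adult epidermis markers at -0.13 over 5, with no gene of these lists past the adjusted threshold. With the length trend removed these medians were -0.41, 0.10 and -0.06, and that of the pharynx markers 0.35. The adult epidermis list was mixed, with 2 genes above 0 and 3 below before that removal, from -0.53 (*rol-6*) to 0.37 (*dpy-7*). Sperm marker sums overlapped, at 10.4 to 24.5 CPM with atracurium and 23.4 to 30.97 CPM with vehicle. Of 8 sperm markers listed, 7 were in the deposited table, from which the authors' filter left out any gene at 0 in all samples. Log2 fold changes over all genes followed exonic length (Spearman rho 0.42 over 17493 genes, across genes, which are not independent replicates), and rho was 0.29 over the 44 metalloproteases. The part of tissue markers and of length in the results that follow was not tested. Values from a repeat with the length trend removed are given beside some of those results.

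No metalloprotease gene passed the test for a difference between atracurium and water vehicle, and the genes with most reads stayed within narrow limits. Of those, the astacin gene *nas-11* came closest to a threshold, at 0.894 times its vehicle level, and *adt-2* had the tightest interval, 0.946 to 1.12 times its vehicle level. In limma-trend, fitted to the deposited log2 CPM (reads of a gene per 1000000 reads of the sample) of all genes with Benjamini-Hochberg adjustment, 0 of 44 had an adjusted p under 0.05, against 0.177% of all genes (31, of which 0.143% were higher and 0.0342% lower with atracurium). At an unadjusted p under 0.01 the count was 0 of 44, against 3.07% of all genes (538; 1.2% higher and 1.87% lower). At an unadjusted p under 0.05 it was 1 of 44 (*nas-11*, lower with atracurium), against 11.5% of all genes (2022), with 6.63% lower. By limma-voom on the reads recovered from the table, 0 of 44 passed the adjusted threshold as well. In 0 of 44 were all samples of one group on one side of all samples of the other, against 7.16% of all genes (3.41% higher and 3.75% lower). As far as the labels say, the samples are separate samples of each group, so these p-values measure the spread between samples.

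The median log2 fold change was -0.06 over the 44 genes and -0.01 over all genes. Values lay above 0 in 21 and below 0 in 23 of the 44, and ran from -0.82 (*nas-12*) to 1.23 (*nas-19*). By family the median was -0.07 for the astacins, 0.04 for the ADAMTS genes, 0.10 for the ADAM genes and -0.08 for the MMPs. A missed threshold does not show that the groups were alike, so the 95% intervals matter: in 14 of 44 genes (31.8%, against 52.6% of all genes) the whole interval lay within a 1.5-fold change in either direction, in 27 it lay within 2-fold, and in 17 it did not. All 11 genes with a mean of at least 100 reads per sample were within 1.5-fold, with standard errors (SE) of 0.056 to 0.177 on the log2 scale. In the 9 genes with fewer than 10 reads the SE ran from 0.37 to 0.68, and a change of 1.5-fold was not detectable at this depth.

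**Figure D1:**
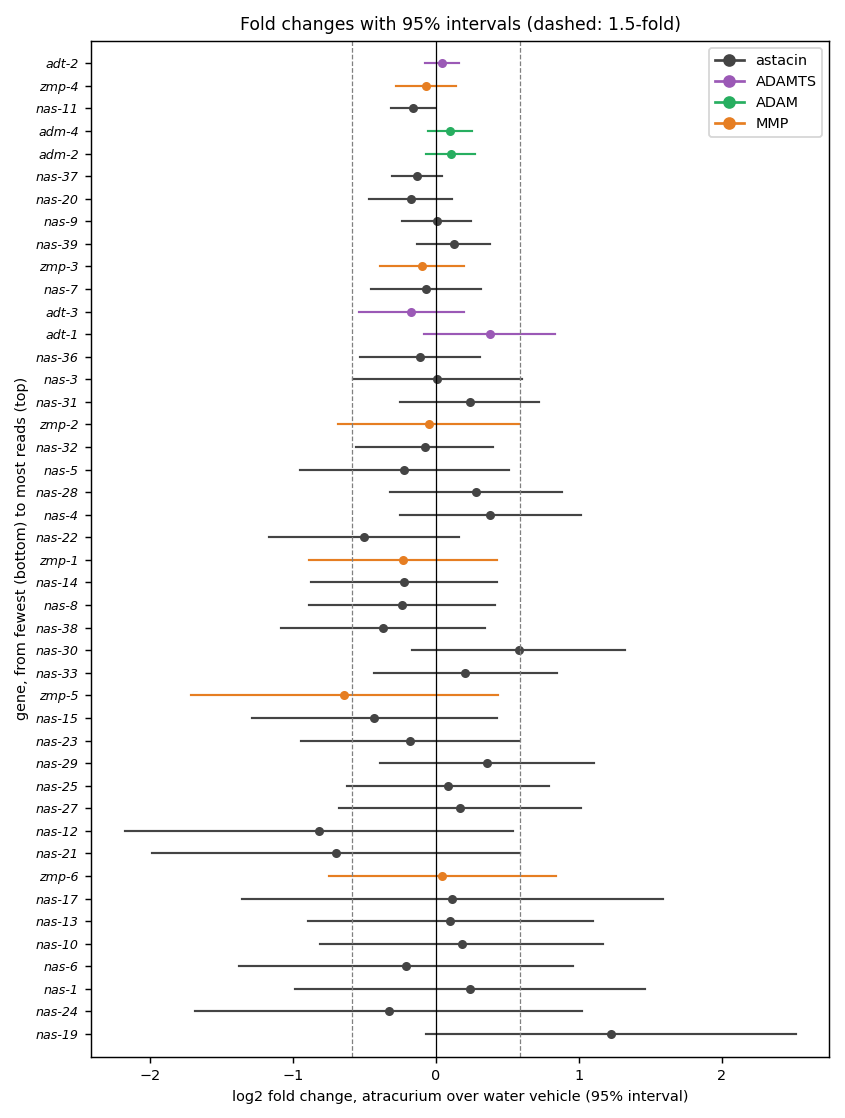
Log2 fold change of each of the 44 genes, atracurium over water vehicle (x axis), with the 95% interval of limma-trend as a horizontal line; genes run down the page from most to fewest reads, colors mark the family, and dashed lines mark 1.5-fold. The intervals of the 11 genes at the top stay within 1.5-fold, while that of *nas-19* at the bottom runs from -0.07 to 2.52.

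Most transcript came from few of the genes. The 11 genes with most reads held 89.1% of the metalloprotease reads, and those 11 were also the 11 highest per kb of exon in both groups. On that scale (CPM per kb of exon, RPKM), the MMP gene *zmp-4* was highest, at 20.4 ± 2.65 with atracurium and 21.3 ± 1.67 with water vehicle (SD, n = 4 each). The astacin gene *nas-11* followed with 18.1 ± 1.08 RPKM with atracurium and 20.3 ± 1.18 RPKM with vehicle, and the ranges of these genes' means ± SD overlap in both groups. Next came *adm-4* (11.98 ± 0.773 RPKM with atracurium, 11.2 ± 0.219 RPKM with vehicle) and *adt-2* (11.4 ± 0.228 RPKM with atracurium, 11.03 ± 0.267 RPKM with vehicle), neighbours that lie within their spread of each other. Each family thus had a member above 10 RPKM in both groups, whereas 33 of the 44 genes lay below the level of *nas-7* and *nas-39*, which were at 2.28 and 2.37 RPKM with atracurium and at 2.41 and 2.18 RPKM with vehicle. The genes were spread over all 6 chromosomes, with 14 on X and 12 on V, and *nas-17*/*nas-19* and *nas-20*/*nas-21*/*nas-22* are neighbours on V with 255 to 2390 nt between members of a cluster. Reads that match more than 1 of such close relatives may be lost or misassigned in counting, and the values of these genes are uncertain to that extent.

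**Figure D2:**
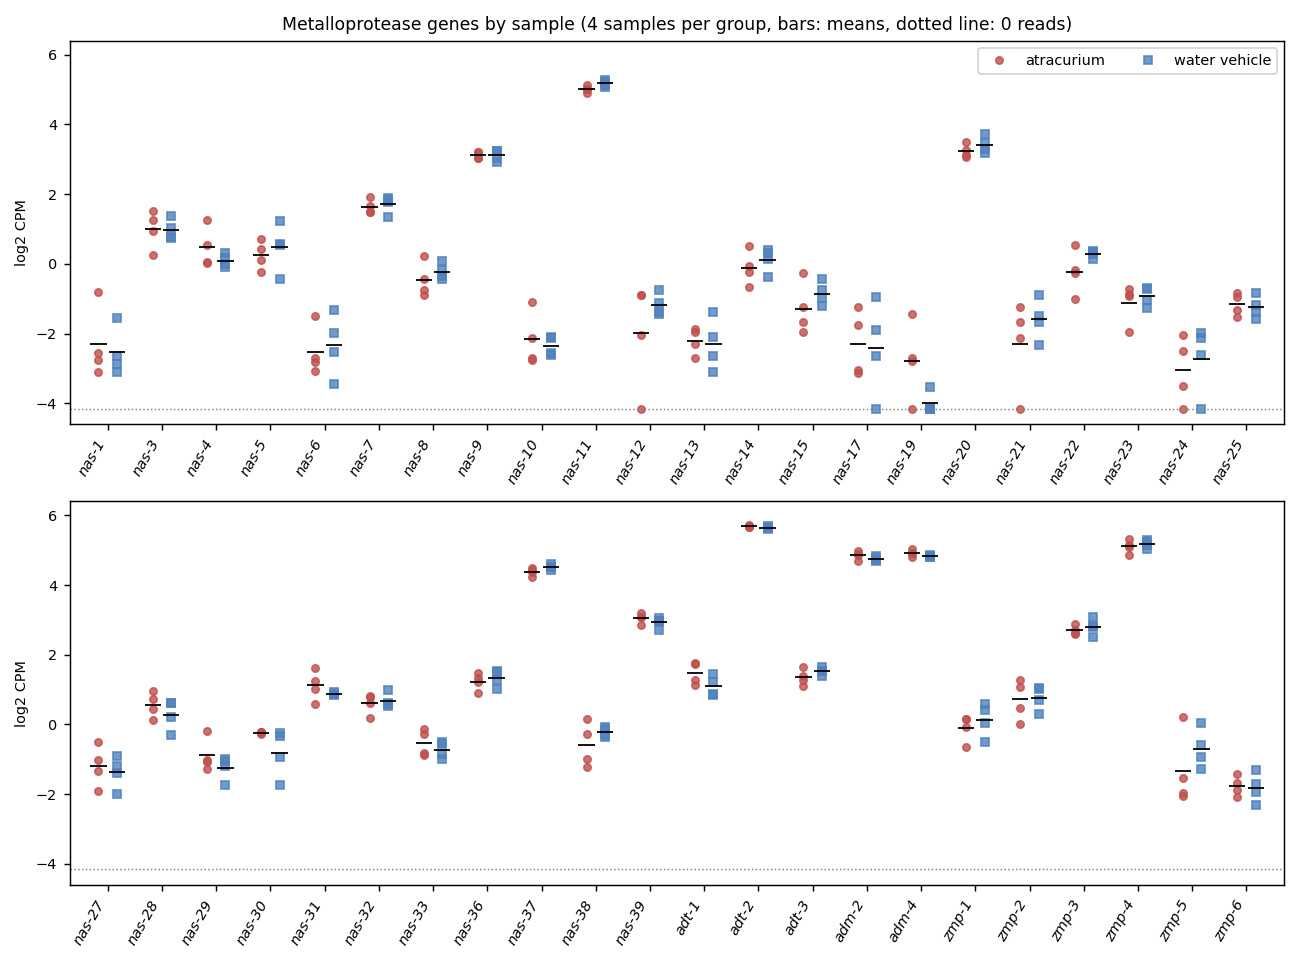
Log2 CPM (y axis) of each of the 44 genes in each sample, with atracurium samples as circles on the left and water vehicle samples as squares on the right of each gene; bars are group means, and the dotted line at -4.15 marks 0 reads. In every gene the symbols of the groups overlap in height, and the scatter is widest near the dotted line.

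Among the astacins, *nas-11* (WBGene00003530, chrX:6713577-6716357, plus strand, WBcel235) had the smallest p. It had 5.02, 5.12, 4.91 and 5.01 log2 CPM with atracurium and 5.22, 5.08, 5.27 and 5.13 log2 CPM with water vehicle. The highest atracurium sample lay above the lowest vehicle sample, so the groups overlapped. The log2 fold change was -0.16 (SE 0.07, 95% interval -0.32 to -0.0048, adjusted p = 0.427 in limma-trend), a fold of 0.894. With the length trend removed the groups no longer overlapped, at a log2 fold change of -0.19 and an adjusted p of 0.418 in limma-trend.

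The astacins of ecdysis, the shedding of the old cuticle at each molt, were *nas-36* and *nas-37*, whose loss leaves larvae caught in the old cuticle. *nas-37* had 4.49, 4.37, 4.44 and 4.23 log2 CPM with atracurium and 4.51, 4.44, 4.51 and 4.62 log2 CPM with vehicle. The highest atracurium sample lay above the lowest vehicle sample, so the groups overlapped, and the log2 fold change was -0.14 (SE 0.08, adjusted p = 0.513 in limma-trend). With the length trend removed it was -0.20, the groups no longer overlapped, and the adjusted p of limma-trend was 0.437. Far fewer reads came from *nas-36*, at 1.21, 1.46, 1.34 and 0.89 log2 CPM with atracurium and 1.03, 1.29, 1.54 and 1.49 log2 CPM with vehicle. Its samples were interleaved, and the log2 fold change of -0.11 had an interval from -0.53 to 0.31. *nas-38*, linked to the length of the quiescent phase before a molt, had -1.23, -0.996, 0.16 and -0.27 log2 CPM with atracurium and -0.08, -0.35, -0.13 and -0.30 log2 CPM with vehicle. The atracurium samples lay on both sides of the closely grouped vehicle samples, with a log2 fold change of -0.37 and an interval from -1.08 to 0.34. Leaving out the first atracurium sample gave -0.16, and leaving out the third gave -0.62.

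*nas-39* is the worm gene most like tolloid and BMP1, which activate growth factors and process collagens in flies and mammals. It had 3.19, 2.85, 3.09 and 3.08 log2 CPM with atracurium and 2.72, 2.97, 3.04 and 2.98 log2 CPM with vehicle. One atracurium sample lay among the vehicle samples and the other 3 above all of them, with a log2 fold change of 0.12 (SE 0.12, interval -0.13 to 0.38), which was 0.035 with the length trend removed. *nas-6*, which serves the grinder of the pharynx, was close to the limit of detection, with 3, 10, 3 and 2 reads with atracurium and 4, 12, 1 and 10 reads with vehicle. Its interval, from -1.38 to 0.96 on the log2 scale, covers more than a 1.5-fold change either way. The pharynx markers given above summed higher in the same atracurium samples, though *pha-4* was at 0.045, and their part in the *nas-6* values was not tested.

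The remaining astacins named here are those with the highest or lowest fold changes among genes with at least 10 reads per sample. *nas-30* had -0.22, -0.22, -0.27 and -0.22 log2 CPM with atracurium and -0.33, -0.23, -0.94 and -1.75 log2 CPM with vehicle. The atracurium samples were almost equal, and a single vehicle sample lay between them. The log2 fold change was 0.58 (SE 0.35, adjusted p = 0.513 in limma-trend), and 0.27 without the fourth vehicle sample. Removing the length trend from all 8 samples put *nas-30* at 0.50. *nas-4* had 0.54, 0.05, 0.03 and 1.27 log2 CPM with atracurium and 0.31, -0.10, 0.18 and -0.02 log2 CPM with vehicle. Its log2 fold change of 0.38 (SE 0.29) came with 2 atracurium samples above and 2 within the vehicle range, and was 0.12 without the fourth atracurium sample. At the other end, *nas-22* had -0.18, -0.996, -0.27 and 0.53 log2 CPM with atracurium and 0.28, 0.37, 0.13 and 0.34 log2 CPM with vehicle. Its atracurium samples lay in 3 cases below the vehicle samples and in 1 case above, for a log2 fold change of -0.50 (SE 0.31, adjusted p = 0.521 in limma-trend). It was -0.25 without the second and -0.76 without the fourth atracurium sample. *nas-12* had 17, 0, 15 and 6 reads with atracurium and 11, 25, 15 and 9 reads with vehicle. The 0 of the second atracurium sample allows up to 3 reads. The log2 fold change was -0.82 (SE 0.63) with that sample and -0.10 without it.

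*nas-19* (WBGene00003538, chrV:11401091-11402710, minus strand) was picked out after its values were seen, for the largest fold change of the 44. It had 0, 3, 3 and 10 reads with atracurium and 1, 0, 0 and 0 reads with vehicle. Atracurium samples held all but 1 of its reads, with 1 of them at 0 like 3 of the vehicle samples. Only its 3 atracurium samples with reads went past the 2 counts that the authors' filter asked of 3 samples. The gene was thus kept on atracurium values alone, and its read ratio and interval do not allow for this selection. The ratio of reads per library size was 18.4 (95% exact interval 2.87 to 774, counting error only). The adjusted p of limma-trend was 0.449 for a log2 fold change of 1.23 (SE 0.60). That log2 fold change was 0.78 without the fourth atracurium sample.

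**Figure D3:**
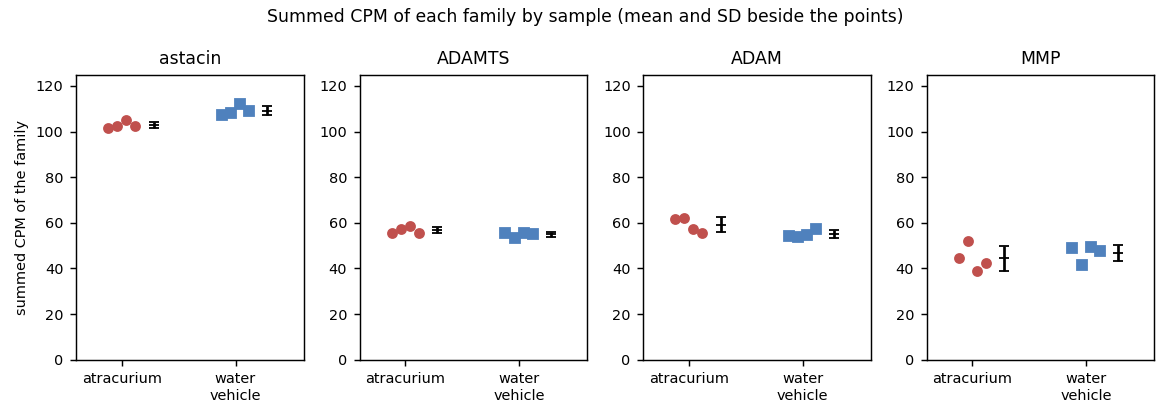
Summed CPM of the genes of each family (y axis, from 0) in each atracurium sample (circles, left) and each water vehicle sample (squares, right), with the mean and SD beside the points (n = 4 each). Astacin sums were at 102 to 105 CPM with atracurium and at 107 to 112 CPM with vehicle, and MMP sums scattered most.

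Summed over its 33 genes, the astacin family took a slightly smaller share of the reads with atracurium. The sum was 102.9 ± 1.43 CPM with atracurium and 109.2 ± 2.06 CPM with vehicle (SD, n = 4 each), 5.79% lower, and the groups did not overlap. The 3 astacins with most reads, *nas-11*, *nas-37* and *nas-20*, carried 62.4% of it and summed to 59.3 to 64.8 CPM with atracurium and 68.4 to 72.2 CPM with vehicle. The other 30 astacins summed to 37.7 to 43.2 CPM with atracurium and 37.8 to 40.7 CPM with vehicle, and overlapped. The family sums are given as a description with no test, and that of the astacins depended on the scaling: with all samples set to a common median it was 1.41% lower, with quantile normalization 2.46% lower, with overlap of the groups in both, and with the length trend removed 8.02% lower without overlap.

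The ADAMTS family was carried by *adt-2*, which acts on cuticle collagen and body size, and was the gene with the most reads of the 44. *adt-2* (WBGene00000083, chrX:7586209-7595416, plus strand) had 5.67, 5.69, 5.72 and 5.66 log2 CPM with atracurium and 5.66, 5.60, 5.68 and 5.63 log2 CPM with vehicle. The 8 samples lay closer together than those of any other gene of the 4 families. Its log2 fold change of 0.04 (SE 0.06) had an interval from -0.08 to 0.16, and with the length trend removed it was -0.06. *adt-1*, needed to shape the sensory rays of the male tail, had 1.28, 1.73, 1.75 and 1.13 log2 CPM with atracurium and 0.85, 1.22, 0.88 and 1.44 log2 CPM with vehicle. In all, 2 of the 4 atracurium samples stood above every vehicle sample, with a log2 fold change of 0.38 (SE 0.21, interval -0.08 to 0.83, adjusted p = 0.492 in limma-trend). *adt-3* had 1.39, 1.11, 1.28 and 1.64 log2 CPM with atracurium and 1.66, 1.53, 1.40 and 1.53 log2 CPM with vehicle, a log2 fold change of -0.17 (SE 0.17). Removing the length trend put *adt-1* at 0.27 and *adt-3* at -0.26. The ADAMTS sum was 55.7 to 58.5 CPM with atracurium and 53.5 to 55.6 CPM with vehicle, and with the length trend removed it was 51.6 to 57.4 CPM with atracurium and 55.3 to 58.1 CPM with vehicle.

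Both ADAM genes had fold changes above 0 without passing a threshold. *adm-4* (WBGene00000075, chrX:7794875-7798298, minus strand) is the worm gene most like ADAM17, a sheddase of membrane proteins. It had 4.92, 5.04, 4.81 and 4.91 log2 CPM with atracurium and 4.80, 4.82, 4.79 and 4.86 log2 CPM with vehicle. One atracurium sample fell within the vehicle range and the other 3 lay above it, with a log2 fold change of 0.10 (SE 0.07, interval -0.05 to 0.25, adjusted p = 0.581 in limma-trend). *adm-2*, which bears on molting, had 4.99, 4.88, 4.87 and 4.69 log2 CPM with atracurium and 4.73, 4.68, 4.76 and 4.84 log2 CPM with vehicle. The pattern was the same, 3 samples above and 1 within, and the log2 fold change was 0.10 (SE 0.08). With the length trend removed *adm-4* was at 0.035 and *adm-2* at 0.018. ADAM genes outside the naming rule, *sup-17* (ADAM10) and *unc-71*, were at 0.03 (SE 0.06) and 0.08 (SE 0.06), and at -0.06 and -0.01 with the length trend removed.

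The MMP genes cut basement membrane and matrix. *zmp-4* (WBGene00012364, chrV:14917735-14921609, minus strand) had 5.15, 5.32, 4.86 and 5.09 log2 CPM with atracurium and 5.24, 5.03, 5.29 and 5.16 log2 CPM with vehicle. Samples of both groups alternated, with a log2 fold change of -0.07 (SE 0.10, interval -0.28 to 0.14). *zmp-1*, expressed in the anchor cell that crosses the basement membrane under the uterus, had 0.15, -0.08, 0.16 and -0.63 log2 CPM with atracurium and 0.05, 0.40, -0.51 and 0.59 log2 CPM with vehicle. Its log2 fold change of -0.23 (SE 0.30) was smaller than its SE. *zmp-2* had 0.48, 1.28, 1.08 and 0.02 log2 CPM with atracurium and 0.31, 0.71, 1.02 and 1.04 log2 CPM with vehicle, and *zmp-3* had 2.60, 2.88, 2.64 and 2.70 log2 CPM with atracurium and 3.07, 2.51, 2.80 and 2.82 log2 CPM with vehicle. Their log2 fold changes were -0.05 (SE 0.29) and -0.10 (SE 0.14), and the samples were mixed in both. With the length trend removed *zmp-2* was at -0.13. *zmp-6*, with 11, 6, 8 and 7 reads with atracurium and 7, 9, 7 and 10 reads with vehicle, had a log2 fold change of 0.04 and an interval from -0.75 to 0.84, and was at 0.098 with the length trend removed.

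*zmp-5* was the MMP gene that depended most on a single sample. It had 7, 37, 9 and 6 reads with atracurium and 12, 29, 17 and 28 reads with vehicle. The second atracurium sample had more reads than any vehicle sample, and the other 3 fewer than any of them. The log2 fold change was -0.64 (SE 0.50, adjusted p = 0.61 in limma-trend), and without the second atracurium sample it was -1.16, with an unadjusted p under 0.01 and no metalloprotease past the adjusted threshold.

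**Figure D4:**
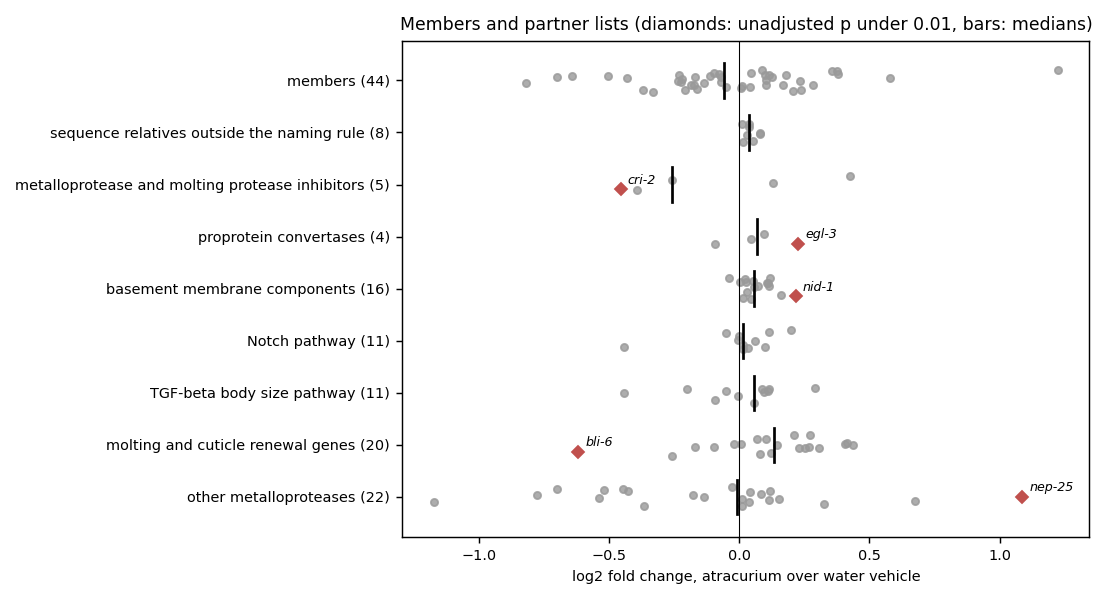
Log2 fold change, atracurium over water vehicle (x axis), of the 44 metalloproteases and of 8 lists of related genes, with the number of genes in brackets; each point is a gene, bars are medians, and diamonds are genes with an unadjusted p under 0.01 in limma-trend. The metalloproteases hold no diamond, and the inhibitors are the only list with a median below -0.1, which was 0.0016 with the length trend removed.

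Related genes were read from the same fit, in lists by known function. In the 8 lists 0 genes passed an adjusted p of 0.05 in limma-trend as fitted throughout, and 5 had an unadjusted p under 0.01, against 3.07% of all genes. These were 1 of 5 inhibitors, 1 of 4 proprotein convertases, 1 of 16 basement membrane genes, 1 of 20 molting genes and 1 of 22 neprilysin-like genes. The lists of 8, 11 and 11 genes held 0. The relatives of the 4 families that carry other names lay close to 0: 8 genes, all above 0 at 0.01 to 0.08 on the log2 scale, with 2 of 8 above 0 once the length trend was removed. Among them were *hch-1*, the hatching enzyme, at 0.08 (SE 0.18), *dpy-31*, a procollagen C-proteinase, at 0.04 (SE 0.07), and *gon-1*, an ADAMTS enzyme of gonad growth, at 0.01 (SE 0.10), which was -0.11 with the length trend removed.

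Of 5 inhibitors, *cri-2*, a gene related to the tissue inhibitors of metalloproteases (TIMPs), had an unadjusted p under 0.01. It had 3.08, 2.82, 3.49 and 3.36 log2 CPM with atracurium and 3.51, 3.73, 3.83 and 3.51 log2 CPM with vehicle. Every atracurium sample lay below every vehicle sample, with a log2 fold change of -0.46 (SE 0.14, adjusted p = 0.31 in limma-trend). The TIMP gene *timp-1*, at -0.26 (SE 0.11), had 3.28, 3.11, 3.27 and 3.19 log2 CPM with atracurium and 3.23, 3.58, 3.58 and 3.49 log2 CPM with vehicle. Both are short genes, with 531 and 550 nt of exon, and with the length trend removed *cri-2* was at -0.16 (adjusted p = 0.727 in limma-trend) and *timp-1* at 0.02. The molting inhibitor *mlt-11* was at 0.42 (SE 0.20) and the papilin gene *mig-6* at 0.13 (SE 0.07), and with the length trend removed at 0.29 and 0.0016.

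Among 4 proprotein convertases, which cut the propeptides of secreted precursors, *egl-3* was at 0.22 (SE 0.07, adjusted p = 0.301 in limma-trend), and at 0.16 with the length trend removed. Of 16 basement membrane genes 15 lay above 0, with a median of 0.05 and *nid-1* (nidogen) highest at 0.22 (SE 0.07), but with the length trend removed 2 of 16 lay above 0 and *nid-1* was at 0.10. The Notch and TGF-beta body size lists, of 11 genes each, had medians of 0.02 and 0.06 (-0.0050 and -0.02 with the length trend removed) and 0 genes at an unadjusted p under 0.01. Over 20 molting genes the median was 0.13, and *bli-6*, a cuticle collagen, was at -0.62 (SE 0.12, adjusted p = 0.098 in limma-trend). *bli-6* passed the adjusted threshold under 3 alternatives: robust moderation (0.0331), sample weights (0.0068) and without the second atracurium sample (0.0285). In 22 neprilysin-like metalloproteases, which cut peptides at the cell surface, the median was -0.01, and with the length trend removed it was -0.10 with 6 of 22 above 0. The highest, *nep-25*, stood at 1.09 (SE 0.32, adjusted p = 0.291 in limma-trend), with 19, 21, 13 and 23 reads with atracurium and 9, 19, 5 and 6 reads with vehicle. The 19 vehicle reads came from the sample with by far the most reads in all, and with the length trend removed the log2 CPM of the groups did not overlap. At the other end stood *nep-9*, named after its values were seen, at -1.17 (SE 0.40, adjusted p = 0.343 in limma-trend), with *nep-13* at -0.78 and *nep-6* at -0.70.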

How the data were processed

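RNA sequencing values of 8 whole-worm samples were used. The authors checked reads with FastQC, trimmed them with Trimmomatic 0.32, aligned them to WBcel235 with HISAT2 2.1.0 and counted them per gene by read direction with HTSeq 0.11.0. Genes that did not reach past 2 counts in 3 samples were left out by the authors. The authors then deposited log2 CPM (reads of a gene per 1000000 reads of the sample) from edgeR 3.26.8 with TMM scaling. The columns are headed CPM, but their values are log2, with the same floor of -4.15 in every sample, which stands for 0 reads. Whole reads were recovered from the steps of the values, 100% of them within 0.1 of a whole number, and served for levels and the limma-voom alternative.

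Groups came from the labels, 4 samples each. All 17521 genes were fitted in limma 3.58.1 (R 4.3.3; limma-trend, two-sided, Benjamini-Hochberg over all genes), and the code was tested on simulated data. A log2 fold change on this scale understates changes of genes with few reads. Exonic lengths came from the Ensembl annotation of WBcel235. Genes given in full were those of known role or of the small families, the highest per kb in each family and the 3 highest and 3 lowest fold changes among genes with at least 10 reads per sample. The genes, lists and alternatives were chosen with earlier results of these data known. Replicates were not duplicates: their counts differed by a chi-square per degree of freedom of 5.72 to 69.3. Pairs with the second atracurium sample gave 33.0, 38.1 and 69.3, and all other pairs 5.72 to 23.7. That sample deviated most from its group mean over all genes (mean 0.332 on the log2 scale, against 0.187 to 0.303 in the others). It also had the lowest weight, 0.34, in the fit with sample weights.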

Additional observations from a re-analysis of the deposited data

Results flagged for a closer look

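In the 88 groups of 4 values given by the 44 genes, 3 had a sample far from its fellows by Dixon's criterion, which chance gives in about 5% of groups. *nas-19* in the first water vehicle sample was at -3.5423 log2 CPM, from 1 read, while the other vehicle samples had 0. *nas-23* in the first atracurium sample was at -1.9647 log2 CPM, from 7 reads, against -0.91 to -0.73 in the other atracurium samples. *nas-30* in the third atracurium sample was at -0.274 log2 CPM, from 24 reads, against -0.22 in the other atracurium samples.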

How the results depend on the processing

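Of 19 alternatives, 8 of them leaving out 1 sample each, all gave 0 metalloproteases at an adjusted p under 0.05 in limma, and the smallest adjusted p was 0.146 (*nas-11*, sample weights). Fits with edgeR and DESeq2 were planned and not run on the recovered reads. Genes at an unadjusted p under 0.01 were 1 with sample weights (*nas-11*), against 6.27% of all genes. They were 0 to 1 when 1 sample was left out (*zmp-5* without the second atracurium sample, against 3.58% of all genes). Genes without overlap of the groups were 2 with the length trend removed, with and without the replicate block, against 5.03% of all genes. They were 0 to 4 when 1 sample was left out, which leaves fewer samples to overlap, against 9.38% to 16.2% of all genes. The ADAM median was 0.026 with the length trend removed, with and without the block. Genes of the related lists at an unadjusted p under 0.01 were 5, and became 3 with no mean-variance trend, with the filter of log2 CPM above 0 in at least 4 samples, with the replicate block and with the length trend removed, 9 with sample weights, 1 with length removal and the block together, and 1 to 6 when 1 sample was left out. Over all genes the share was 6.27% with sample weights and 1.75% to 5.04% when 1 sample was left out. It was 2.43% to 3.43% under the other alternatives named in that count. Same-numbered samples did not deviate together (correlations -0.057 to 0.036, 1 of 4 samples closest to its own number). No pairing by number was thus seen, though so few correlations cannot exclude a weak one. The replicate block gave 0 metalloproteases and 20 genes in all, against 31 without it.

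Of 816 fold changes of the 44 genes under alternatives, 47 had the opposite sign, in 20 genes, none of them called; the cause was not tested. With the length trend removed, with and without the block, *nas-9* was at -0.026 and *adt-2* at -0.064. With quantile normalization *nas-6* was at 0.012, *nas-7* at 0.0021, *nas-32* at 0.023 and *zmp-2* at 0.050, and with a common median *zmp-2* was at 0.012. With sample weights *nas-17* was at -0.65, *nas-25* at -0.015, *nas-33* at -0.030 and *zmp-1* at 0.047, and by limma-voom *nas-3* was at -0.023. When 1 sample was left out, the fold changes that turned ran from -0.26 to 0.57 for *nas-1*, -0.17 to 0.26 for *nas-3*, -0.52 to 0.026 for *nas-5*, -0.58 to 0.12 for *nas-6*, -0.052 to 0.053 for *nas-9*, -0.18 to 0.37 for *nas-10*, -0.17 to 0.41 for *nas-13*, -0.47 to 0.60 for *nas-17*, -0.31 to 0.10 for *nas-23*, -0.81 to 0.034 for *nas-24*, -0.027 to 0.22 for *nas-25*, -0.058 to 0.41 for *nas-27*, -0.15 to 0.059 for *nas-32*, -0.24 to 0.18 for *zmp-2*, -0.14 to 0.012 for *zmp-4* and -0.12 to 0.21 for *zmp-6*. The stricter filter kept 24 of the 44 genes, and depth limits the 9 with under 10 reads. Of the genes in the related and marker lists, sample weights called *msp-31*, *unc-54* and *tnt-4* beside *bli-6* and the pharynx genes *myo-1* and *myo-2*, leaving out the second atracurium sample called *tnt-4*, and length removal with the block called *sqt-3*. Calls of *myo-1* and *myo-2* were lost with no mean-variance trend, with the block, with length removal and when the first atracurium sample or any 1 vehicle sample other than the first was left out, and that of *myo-2* also without the fourth atracurium or the first vehicle sample.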
